A study of Drosophila melanogaster with 12 samples.

Results

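The X-linked 3′ extensions are the stretches of transcript past a proximal 3′ end that the authors mapped to the X chromosome of Drosophila melanogaster. They were chosen by position alone, as every row of the 4 deposited tables whose extension lies on X. They make up 462 of 2634 listed extensions and belong to 269 of 1457 listed genes. The table for SG holds 165 of them among 751 rows (22%), that for SG-tut 95 of 627 (15.2%), that for SG-bam 111 of 638 (17.4%) and that for SG-bgcn 91 of 618 (14.7%). For comparison, 2196 of 13986 annotated protein-coding genes (15.7%) lie on X.

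Most animal genes carry more than one site at which the RNA can be cut and given its poly(A) tail, and the site used sets how long the 3′ untranslated region (3′ UTR) is. Longer 3′ UTRs hold more binding sites for RNA-binding proteins and microRNAs, and the choice of site differs between tissues and between stages of germ cell development. Male flies carry a single X, and many genes with testis-specific expression lie on the autosomes.

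Every group came from the testis. SC stands for meiotic and SG for mitotic germ cells, which were cut by laser from wild-type testes (3 libraries per group). The groups SG-tut, SG-bam and SG-bgcn were whole testes of tut (tut3), bam (bamBG/bamΔ86) and bgcn (bgcn20093/bgcnQS2) mutants, with 2 libraries each, and held mostly mitotic germ cells along with whatever other testis cells the mutant keeps. In all 3 mutants germ cells go on dividing and do not enter the spermatocyte programme. SG and SC libraries were made with the SMARTer Ultra Low Input kit and Nextera XT, and mutant libraries from Trizol RNA with bead-enriched mRNA and the Illumina mRNA-Seq kit. The genotype, the dissection and the library kit therefore cannot be told apart between a mutant group and SC. Nothing in the labels states whether replicate libraries derive from different animals, and the p-values in the deposited tables may therefore reflect technical spread alone.

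For each row the tables give a level of the extension and of its gene as an average over the libraries of a group, with no value per library and no error. The unit of these levels and the depth per library are unknown, and whether a level is scaled to length is not given in the sources used here. A share relates the level of the extension to that of the gene, in percent, with an upper limit of 100%. A row is called here where the authors' deposited table gives an FDR of 0.05 or less, and its direction is that of the share. Whether that FDR tests the extension level or the share is not given in the sources used here. Every listed row already had a p-value below 0.05 and an extension level that differed by more than 2-fold, so counts of calls are shares of a selected list.

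Marker genes, looked up on all chromosomes, went with the labels only in part. Of 7 early germ line markers 3 were listed. The gene level of stg, the phosphatase that starts mitosis, was 0.57 in SC and 19.3 to 26.1 in the 4 mitotic groups. The other early germ line markers went against the label of SG, with mei-P26 at 25.6 in SC and 11.4 in SG and tut at 87.3 and 44.2, so the summed level of the 3 was 113 in SC and 79.1 in SG. In SG-bam and SG-bgcn mei-P26 was higher than in SC, at 40.4 and 30.4. The spermatid gene fzo stood at 245 in SC and 0.93 to 1.71 in SG, SG-bam and SG-bgcn. The spermatocyte gene aly differed less, at 72.7 in SC and 14.1 to 23.35 in SG, SG-bam and SG-bgcn. Of the spermatocyte and spermatid markers 6 of 8 were listed, and their summed gene level per table was 318 to 9507 in SC against 1.86 to 129 in the mitotic groups. Each sum covers only the 2 or 3 members listed in that table, which were not the same ones, so the sums cannot be compared between tables. Markers of other cells also differed. The muscle gene Tm1, the only one of 5 muscle markers listed, was at 18.2 in SC, 97.2 in SG and 158 to 213 in the mutants. The accessory gland gene Acp95EF, 1 of 3 listed, was at 349 in SC and 673 to 3980 in the mutants. Of the cyst cell markers 3 of 5 were listed. zfh1 was at 2.7 in SC and 8.98 to 11.3 in SG, SG-bam and SG-bgcn, and Nrg at 12.15 in SC and 30.8 in SG. By contrast, dally was at 139 in SC and 0.15 to 5.13 in SG and SG-bgcn. Cg25C, 1 of 2 basement membrane genes, was at 0.56 in SC and 7.94 in SG, and CadN, 1 of 4 hub genes, at 2.34 and 3.21. The part of these other cells in the results was not tested, and in bulk RNA fewer cells of a type cannot be told apart from less RNA per cell.

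In dissected spermatogonia, X-linked extensions took the larger share of their genes in nearly every row. The share was higher in SG in 160 of 165 X-linked rows that also passed the FDR threshold (97%), against 88.5% of all rows of that table and 505 of 586 rows (86.2%) on the other chromosomes. No X-linked row was called higher in SC, whereas 7.86% of all rows and 59 rows (10.1%) on the other chromosomes were. The 5 remaining X-linked rows missed the threshold, and 1 of them, rngo, a ubiquitin receptor needed for the ring canals of the germ line, had the higher share in SC (0.491% against 0.0866% in SG).

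In the mutant testes most X-linked rows again had the larger share on the mitotic side, beside some called toward SC. In SG-tut 82 X-linked rows (86.3%) were called higher in the mutant, beside 71.9% of all rows and 69.4% on the other chromosomes. In SG-bam this was so for 91 rows (82%), beside 73.5% of all rows and 71.7% elsewhere. In SG-bgcn it was so for 79 rows (86.8%), beside 71% of all rows and 68.3% elsewhere. Calls toward SC numbered 10 on X in SG-tut (10.5%, beside 25.2% of all rows), 13 in SG-bam (11.7%, beside 22.1%) and 8 in SG-bgcn (8.79%, beside 23.5%). The 4 comparisons share the SC libraries, so their likeness is not independent evidence, and no test of X against the other chromosomes was made because neighbouring genes of 1 library are not replicates.

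**Figure D1:**
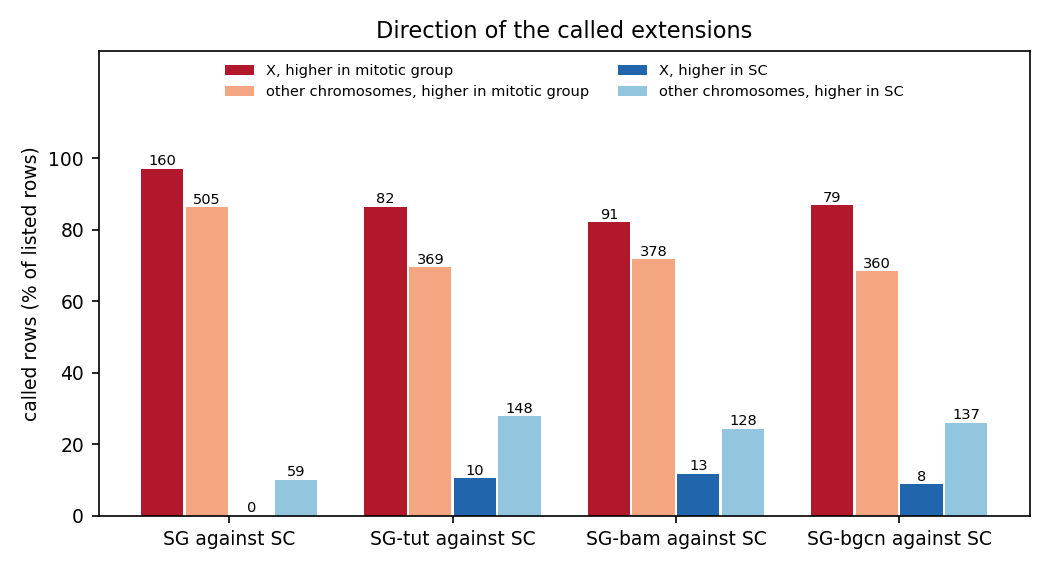
Called extensions as a percentage of the listed rows on X (dark bars) and on the other chromosomes (light bars), per table and direction, with the number of rows above each bar. The dark red bars stand at 97%, 86.3%, 82% and 86.8%, each above its light neighbour, and the dark blue bars at 0%, 10.5%, 11.7% and 8.79%, each below it.

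Set beside each of the other large chromosome arms, X was at the top for calls toward the mitotic group in every table. In SG the arms 2L, 2R, 3L and 3R had 84% to 87.3% of their rows called higher in SG. In SG-tut they had 58.9% to 71.3%, in SG-bam 64.8% to 76.2% and in SG-bgcn 55% to 71.9%. Arm 2L had the fewest such rows in the 3 mutant tables. The small chromosome 4, with 13 to 19 rows per table, had still more than X, from 92.3% in SG-bam and SG-bgcn to 100% in SG and SG-tut. Set against the number of annotated protein-coding genes, the X rows of the SG table came to 7.51%, against 4.44% to 5.18% on the large autosomal arms and 23.8% on chromosome 4. In the mutant tables X, at 4.14% to 5.05%, lay among or close to the large arms, at 4.03% to 4.94%.

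The median share of the extension was larger on X than on all other chromosomes pooled, though not than on each arm. Among rows called higher in the mitotic group, the median share on X was 1.38% in SC and 25.9% in SG, against 0.663% and 11.1% on the other chromosomes. In the SG-tut table the X medians were 1.61% and 23.4%, against 0.809% and 13%. In the SG-bam table they were 2.3% and 23.1%, against 0.812% and 13.4%, and for SG-bgcn they were 1.33% and 21.9%, against 1.02% and 15.9%. In SG-bgcn arm 3R lay above X in both states, at 2.31% and 24.9%, and chromosome 4 came close to X in SG, at 22.9%. The medians of the extension level itself lay closer together, at 2.01 on X and 1.74 elsewhere in SG, 3.1 and 3.19 in SG-tut, 3.36 and 3.39 in SG-bam and 2.88 and 3.59 in SG-bgcn.

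The median gene level was lower on X than on all other chromosomes pooled in both groups of every table. Its part in the larger share on X was not tested. The median gene level of the same rows was 7.11 in SC and 11.4 in SG on X, and 18.2 and 18.9 on the other chromosomes. In SG-bam it was 7.46 and 23 on X against 19.3 and 34.8 elsewhere, in SG-tut 10.8 and 21.6 against 19.1 and 32.4, and in SG-bgcn 15.5 and 25.1 against 17.7 and 33.5. Arm 3R lay below X for SC in the SG-bgcn table, at 9.01. Among rows with a gene level of at least 1 in both groups, the SC median of that table was 27.5 on X and 24.3 elsewhere. Because the unit is unknown, these medians describe the lists and do not rank single genes. A gene level below 1 in SC was found in 20% of the X rows of the SG table and in 11.3% of the others.

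Among rows with a gene level of at least 1 in both groups, the gap in mitotic share was smaller in SG and nearly gone in SG-tut, but remained in SG-bam. The median mitotic share was then 13% on X and 7.69% elsewhere in SG, 11.5% and 11.2% in SG-tut, 19.8% and 10.6% in SG-bam, and 14.5% and 11.1% in SG-bgcn. The median SC share was 0.942% on X and 0.442% elsewhere for SG, 1.13% and 0.691% in that of SG-tut, 1.23% and 0.674% in that of SG-bam, and 0.942% and 0.705% in that of SG-bgcn.

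**Figure D2:**
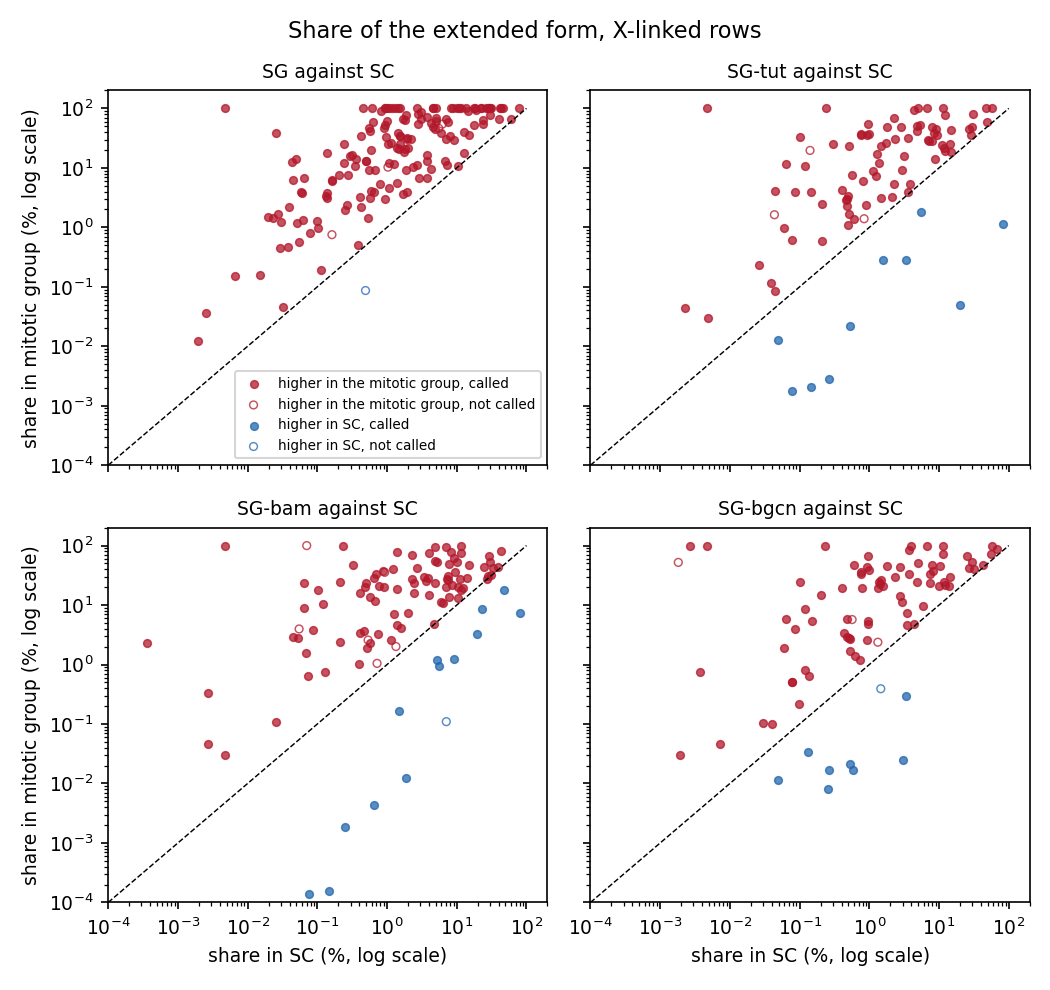
Share of the extended form in SC (x axis) and in the mitotic group (y axis), both in percent on log axes, 1 point per X-linked row and 1 panel per table, with filled points for called rows and the dashed line at equal shares. Nearly all SG points lie above the line, 34 of them at the 100% limit, and the blue points below the line in the mutant panels number 10, 13 and 8 called rows.

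In rows called higher in a mitotic group the extension level always rose, which the listing fixes, while the gene level moved either way. Of the 160 X-linked rows called higher in SG, the gene level was more than 2-fold higher in SG in 78, within 2-fold in 56 and more than 2-fold lower in 26. In SG-tut the corresponding counts were 41, 30 and 11, in SG-bam 54, 29 and 8 and in SG-bgcn 40, 29 and 10. On the other chromosomes 128 of 505 SG rows had a gene level more than 2-fold lower in SG (25.3%, against 16.2% on X). In SG-tut, SG-bam and SG-bgcn such rows made up 13.4%, 8.79% and 12.7% on X, against 20.1%, 20.6% and 20.8% elsewhere.

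Several X genes kept a level close to that of SC while their extension grew. CoRest, a corepressor that works with the histone demethylase Lsd1, had gene levels of 26.2 for SC and 27 for SG, while its extension level was 0.577 and 8.27. Tom40, the channel of the mitochondrial outer membrane through which proteins enter, had gene levels of 92.7 and 88.8, with an extension at 0.466 in SC and 11.6 in SG. Cfp1, a CXXC protein of the histone H3 lysine methylation complex, had gene levels of 17.8 and 14.7, and its share was 0.421% in SC and 33.9% in SG. Tom40 and Cfp1 were chosen after their values were seen.

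In 34 of the SG rows called on X (21.2%) the extension level reached or passed the gene level, which puts the deposited share at its limit of 100%. On the other chromosomes this held for 80 SG rows (15.8%). The numbers on X were 7 in SG-tut (8.54%), 3 in SG-bam (3.3%) and 7 in SG-bgcn (8.86%), against 7.05%, 8.2% and 10.6% elsewhere, so X was above the others in SG and SG-tut and below them in SG-bam and SG-bgcn. Among the SG genes were mei-P26, nej, peb, disco, cac, Sh and Ten-a, all taken up below. Of the 34, 14 had gene levels of at least 1 in both groups.

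**Figure D3:**
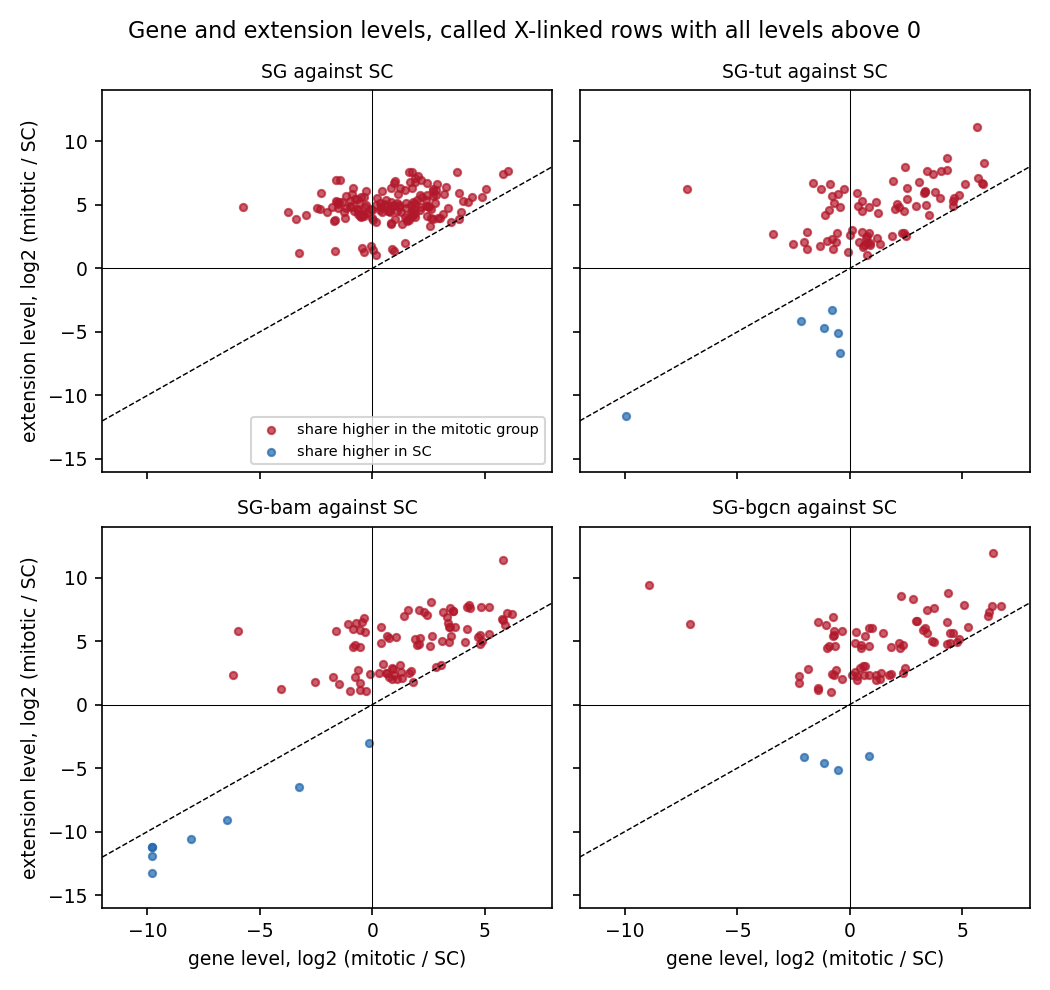
Change of the gene level (x axis) and of the extension level (y axis) as log2 of the mitotic group over SC, 1 point per called X-linked row with all 4 levels above 0 and 1 panel per table, with the dashed line where both change alike. Red points spread over both sides of the vertical line, with 26 SG rows more than 2-fold down in gene level, and all lie above 0 for the extension, which the listing fixes, since share and extension level move the same way in all 2634 listed rows.

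X-linked extensions lay within known gene bounds more often than those of all other chromosomes pooled, while single arms came close to X. Of those called higher in the mitotic group, 32.5% in SG, 50% in SG-tut, 52.7% in SG-bam and 54.4% in SG-bgcn lay wholly inside the gene's locus as the tables give it. On the other chromosomes these parts were 22.6%, 34.1%, 29.9% and 31.1%. Extensions wholly downstream of the locus made up 28.1%, 23.2%, 23.1% and 19% on X, against 38.2%, 40.1%, 41% and 38.6%. By arm, the part inside was 31.6% on chromosome 4 in SG and 50% in SG-tut, and 45.7% on 2L in SG-bam. The part downstream was 26.3% on chromosome 4 in SG and 24.3% on 2L in SG-bam. Set against the Ensembl 3′ UTRs of the same gene, 70%, 70.7%, 72.5% and 77.2% of the X-linked extensions touched one, against 55.8%, 52.3%, 52.9% and 54.4% elsewhere, and 25%, 31.7%, 37.4% and 35.4% lay wholly in one, against 14.7%, 20.1%, 16.7% and 17.8%. The order of X and other chromosomes was the same among rows with gene levels of at least 1 in both groups, where 28.8%, 46.2%, 50% and 53.3% of the X-linked extensions lay inside the locus, against 20.1%, 32.2%, 28.1% and 28.5%.

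**Figure D4:**
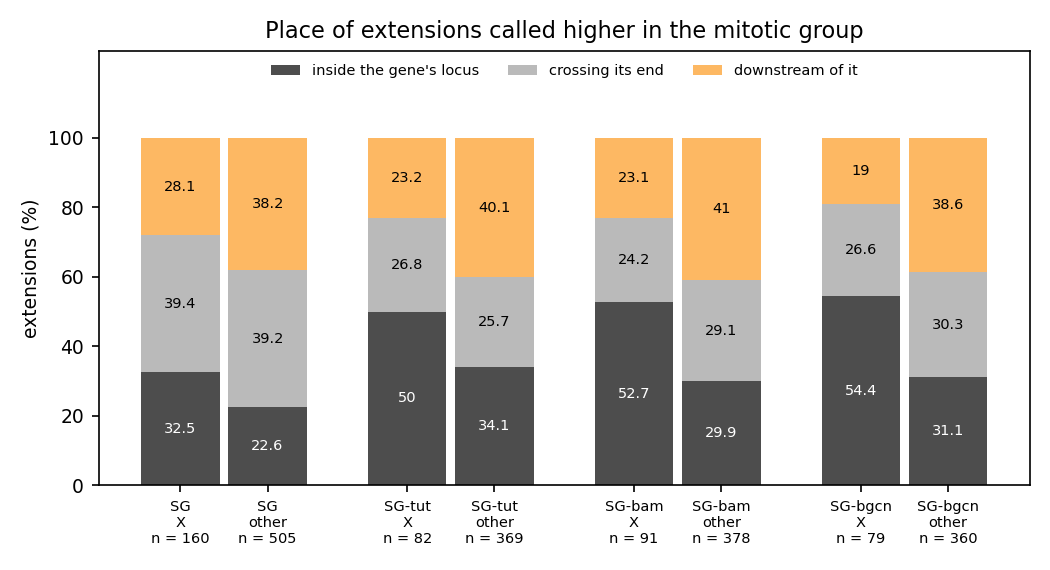
Place of the extensions called higher in the mitotic group relative to the gene's locus, as a percentage of rows on X and on the other chromosomes in each table, with the number of rows below each bar. The dark part, inside the locus, is larger on X in all 4 tables, from 32.5% against 22.6% in SG to 54.4% against 31.1% in SG-bgcn.

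Downstream extensions had the smallest median share in every table, on X as on the other chromosomes. In SG the median share of X-linked extensions inside the locus was 53%, that of extensions crossing its end 39.3% and that of extensions downstream of it 5.26%, on 52, 63 and 45 rows. The mutant groups kept the inside extensions highest, at 28.1%, 27.4% and 24.5% in SG-tut, SG-bam and SG-bgcn, and the downstream ones lowest, at 10.7%, 13.9% and 8.46%. The other chromosomes had 21.9%, 23.9% and 3.9% inside, crossing and downstream in SG, so there the inside extensions were not the highest. In the mutants they had the same order as X, at 24.6%, 13% and 6.53% in SG-tut, 25.6%, 14.6% and 7.51% in SG-bam, and 27.8%, 14.8% and 9.17% in SG-bgcn. Downstream extensions were the shortest on X in SG (median 350 bases) and the inside ones the longest (1035 bases).

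Length itself did not set X apart. Called X-linked extensions higher in the mitotic group had a median of 564 bases in SG, 725 in SG-tut, 730 in SG-bam and 630 in SG-bgcn, against 630, 660, 759 and 715 on the other chromosomes, higher in 1 table and lower in 3. Extensions over 2000 bases made up 12.5%, 19.5%, 23.1% and 24.1% on X and 11.5%, 18.7%, 22% and 22.2% elsewhere. The longest X-linked extension of all was that of Imp, at 8110 bases in SG.

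Some extensions ran into another annotated gene, which limits what their level measures, since the strand setting of the counting is not given in the sources used here. This held for 11, 13, 11 and 8 of the X-linked rows called higher in SG, SG-tut, SG-bam and SG-bgcn (6.88%, 15.9%, 12.1% and 10.1%), against 12.7%, 16.8%, 17.7% and 17.2% elsewhere. The extension of CG32783, 464 bases from 3948801 to 3949264 on the plus strand, overlapped an exon of Vap33 and had a level of 18.2 in SG against a gene level of 3.68. The extension of CG13365 overlapped spdi, that of dgt4, a subunit of the augmin complex that builds spindle microtubules, overlapped tyf, and that of RpS14a overlapped the neighbouring near-identical copy RpS14b. These genes' shares are therefore uncertain, and so is the 28.4% to 35.8% given for dgt4 in the mutants beside 0.656% to 0.767% in SC. dgt4 was chosen after its values were seen.

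Of the 269 X-linked genes, 167 were listed in 1 table, 38 in 2, 37 in 3 and 27 in all 4. The 102 genes in more than 1 table had the same direction in each of them, and their extensions overlapped. The 4 tables share the SC libraries, and 82% to 97% of X rows per table were called toward the mitotic group. Like directions are therefore near the background and are not a trait shown to be particular to X. In 100 of the 102 the proximal end was the same position in each table, while the distal end was the same in 26. The distal end of 1 gene could thus differ between groups from the same start, and the shares of 1 gene in 2 tables need not cover the same bases. SG alone listed 112 genes, 53 were in SG and at least 1 mutant table, and 104 were in mutant tables only, 24 of these in all 3. A gene missing from a table did not meet the authors' selection there, and nothing is known of its share.

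For 51 X genes with the higher share in all 3 mutants, the mutants lay close to each other. The highest of the 3 shares was a median of 1.3-fold above the lowest, within 1.5-fold in 33 genes and within 2-fold in 47. For 173 such genes on the other chromosomes the median was 1.27-fold. Part of this closeness is built in, since only genes selected in all 3 mutant tables entered and the shares are limited to 100%. CG12708, CG32783 and sd stood at that limit in all 3 mutants and so could not differ.

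The 27 X genes in all 4 tables had the higher share in each mitotic group, and 24 of them were called in all 4. In 14 the share in SG was above that in all 3 mutants and in 6 it was below all 3. The gene level in SG was below that in all 3 mutants in 23 of the 27, and in 13 genes a higher SG share stood beside a lower SG gene level. The gene level was above that of SC in all 4 groups for 19 genes and below it in all 4 for 6.

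**Figure D5:**
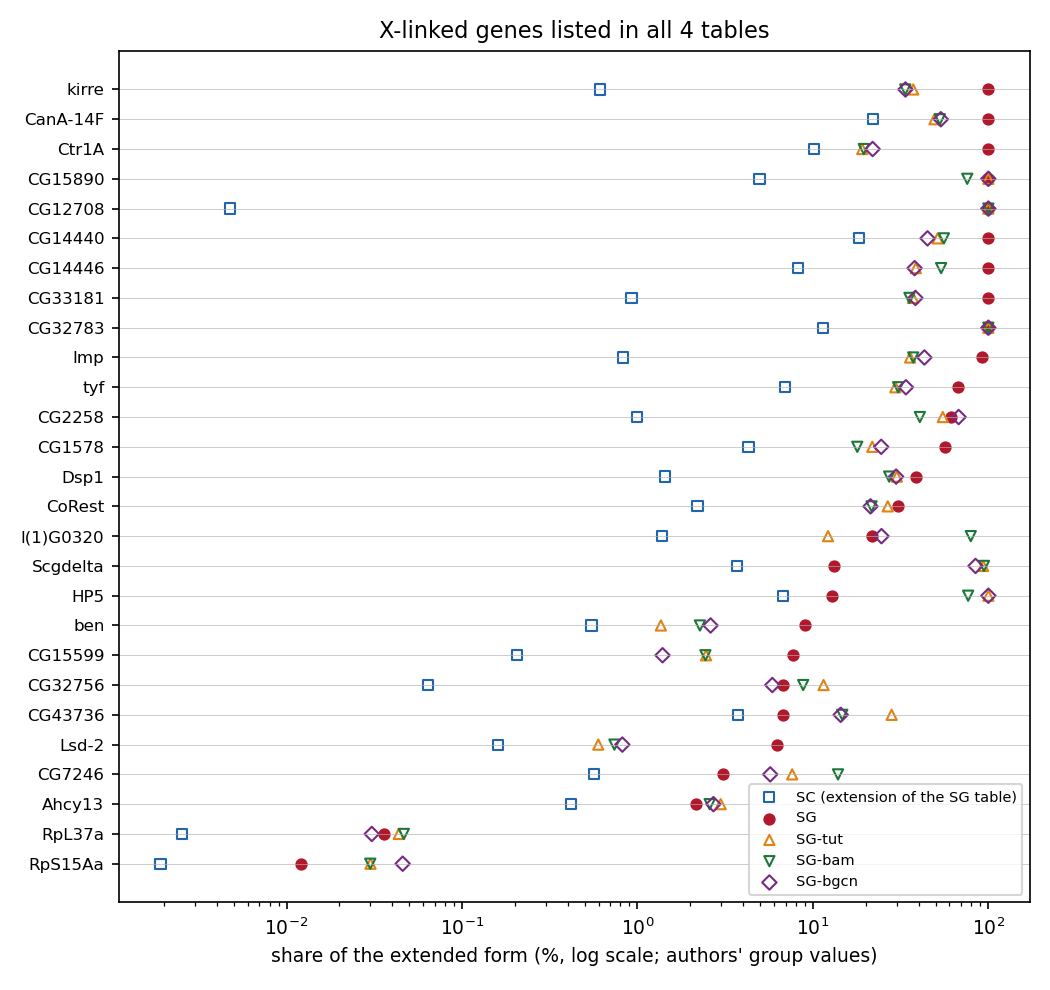
Share of the extended form, in percent on a log axis, for the 27 X-linked genes listed in all 4 tables, with 1 symbol per group and the SC share taken from the SG table. All mitotic symbols lie to the right of the SC square, SG is the rightmost for 14 genes, and the shares in SG run from 0.0121% (RpS15Aa) to 100%.

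Imp, an RNA-binding protein that stabilises the signal transcript unpaired in the testis niche, carried the longest X-linked extension in 3 of the tables. It ran from 10787913 to 10796022 on the minus strand in SG and lay wholly in the annotated 3′ UTR, over an exon of the non-coding gene lncRNA:CR45204. Its share was 0.83% in SC and 92.2% in SG over these 8110 bases. The mutants had 35.8% (SG-tut), 37.3% (SG-bam) and 43.2% (SG-bgcn) over 6660, 7420 and 6660 bases. The gene level went the other way, at 164 in SC, 55.3 in SG and 77.1 to 91 in the mutants, so the extension level was 51 in SG and 1.36 in SC.

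The 269 listed X genes were chosen by position alone, and 1 of them was absent from the annotation. They are therefore not a part of the 2196 annotated protein-coding genes on X. Whether a gene list had more members listed than X genes in general was not tested. For direction, the gene lists that follow stand beside a high background. Per table, 82% to 97% of the X rows were called higher in the mitotic group, as were 71% to 88.5% of all rows. A list whose listed members were all called in that direction is thus near what X rows did in general, and nothing is known of its members that were not listed.

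Of the 14 X-linked members of the RNA processing list, 4 were listed, and all 4 were called higher in a mitotic group, near the background. mei-P26, a TRIM-NHL protein of the germ line, had gene levels of 25.6 in SC, 11.4 in SG, 40.4 in SG-bam and 30.4 in SG-bgcn. Its extension, 2450 bases in SG and 3090 and 3040 bases in SG-bam and SG-bgcn, had levels of 12.4, 8.44 and 5.88 there, so its share was 20.9% and 19.4% in the 2 mutants. In SG-tut it was not listed. su(f), the fly counterpart of the cleavage stimulation factor subunit that helps choose where a transcript ends, had a share of 15.9% in SG-bam over 300 bases and 9% in SG-tut over 720 bases, beside 2.41% and 1.13% of SC for the same stretches. The SG-tut stretch of su(f) also touched CR46425 on the other strand. Sxl, the sex determination switch and splicing regulator, was listed for SG only, with an extension of 4520 bases and an SG level of 5.17 against 0.145 in SC. tyf, which promotes translation of period in clock neurons, had shares of 6.91% for SC and 66.8% for SG, and 29.5% to 33.9% in the mutants.

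Of the germline list, 5 of 19 X-linked members were listed, and all 5 were called higher in the mitotic group, as were 97% of X rows in SG. Besides mei-P26 and Sxl these were ovo, fs(1)h and r-cup. ovo, a zinc finger factor required in the female germ line, had gene levels of 0.09 for SC and 5.08 for SG, and shares of 17.5% and 53.6%. With so low an SC level its SC share rests on little signal, and its stretch touched CG32767 on the other strand. fs(1)h, a BET bromodomain protein, had shares of 5% for SC and 61.3% for SG over 4050 bases, and 25.3% in SG-bam over 1000 bases. r-cup, 1 of the 2 X-linked members of the testis list, had gene levels of 131 for SC and 16.9 for SG.

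Ribosomal proteins had the highest gene levels and small shares. Of 15 X-linked members of the list, 4 were listed, and all were called higher in a mitotic group, near the background, with shares that stayed small in 3 of them. RpL37a had gene levels of 389 for SC and 4146 to 5352 for the mitotic groups, and shares of 0.00253% for SC and 0.036% for SG. RpS15Aa had 411 in SC and 3767 to 4472, with shares of 0.0121% in SG and 0.03% to 0.0459% in the mutants. RpL17 had 189 in SC against 2910 in SG, at shares of 0.0324% and 0.0464%. In these 3 genes the extension stayed a minute part of a high gene level in SC and in each mitotic group that listed the gene. RpL17 was listed for SG only. RpS14a reached 11.7% in SG-bam, from 0.672% in SC, over the stretch that overlaps RpS14b.

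Of 41 X-linked members of the chromatin and transcription list, 9 were listed, all called higher in mitotic groups, again near the background. nej, the histone acetyltransferase CBP, had shares of 13.6% for SC and 100% for SG over 3320 bases, and 18.8% in SG-tut. Its gene level was 5.14 in SC, 3.71 in SG and 27.7 in SG-tut. Smr, a corepressor of nuclear receptors, had 4.21% in SC and 9.46% in SG, with a gene level of 4.8 and 105. HP1b, a chromodomain protein, had 0.497% and 12.9%. peb and disco, both zinc finger factors, reached 100% in SG from 28.9% and 4.52%, and peb was at 30.4% in SG-bam over 810 bases. svr was in this list although it encodes a carboxypeptidase, and its share was 14.7% in SC, 47.7% in SG-bam and 42.8% in SG-tut over 4770 bases.

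sd and Lim1 of the same list were listed for the mutants and not for SG. sd, the TEAD factor that partners Yorkie, had gene levels of 79.1 for SC and 0.52 to 1.26 for the mutants, while the extension of 1020 to 1040 bases in its 3′ UTR rose from 0.185 or 0.189 in SC to between 10.1 and 15.2. Its share was thus 0.234% to 0.239% in SC and at the 100% limit in all 3 mutants. The extension lies inside the locus of sd, yet its level in the mutants was far above the low level of the gene. The mutant gene levels and shares of sd are therefore uncertain. Lim1, a LIM homeodomain factor, had gene levels of 0.45 for SC and 22.4 to 37 for the mutants, and shares of 0.412% to 0.518% for SC and 19% to 23.7% for the mutants. The gene levels of sd and Lim1 thus differed from SC in opposite directions, while the share was higher in the mutants in both.

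Among chromatin genes in all 4 tables but outside that list, CoRest had shares of 2.2% for SC and 30.7% for SG, and 21.3% to 26.7% in the mutants. In SG-bam its extension reached 6050 bases, against 1140 to 1660 in the other groups, from the same start at 19524844 on the plus strand. Dsp1, an HMG-box protein that acts as a corepressor and in Polycomb silencing, had 1.44% in SC and 38.6% in SG over 1650 bases, and 27.2% to 30.1% in the mutants over 780 or 790 bases. HP5, a heterochromatin protein, did the reverse, with 12.8% in SG and 76.7% to 100% in the mutants, from 6.72% or 8.28% in SC. Its gene level was 1.16 in SC and 22.2 to 24 in the mitotic groups, while its extension level was 2.84 in SG and 18.3 to 34 in the mutants. The SG-bam stretch of HP5 was 2610 bases long, the others 330.

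Of 37 X-linked members of the signalling list 9 were listed and all 9 were called higher in mitotic groups, near the background of 82% to 97%. N, the Notch receptor, was listed for the mutants, with gene levels of 0.51 for SC and 11.2 to 13.9 for the mutants, but its share hardly differed from SC in SG-bam (31.5% against 30.7%) and was 36.2% and 41% in SG-tut and SG-bgcn, against 28.9% and 32.1%. hep, the kinase that activates JNK, had 11.3% to 12.1% in SC and 71.9% to 78.8% in the mutants over 3340 to 3630 bases. sgg, the GSK3 kinase of the Wnt pathway, had 27.3% in SC, 27.5% in SG-bam and 41.5% and 45% in SG-bgcn and SG-tut. CkIIbeta, the regulatory subunit of casein kinase II, had 0.51% in SC and 1.66% to 2.76% in the mutants over 3420 bases. Gbeta13F, a G protein subunit, had 0.241% in SC and 12% in SG with gene levels of 48.7 and 65.2. Pvf1, a ligand of the PDGF and VEGF type, had 1.92% and 3.9%, and norpA, a phospholipase C, 14.3% and 90.1% with a gene level of 0.75 in SC. Pde9, which breaks down cyclic nucleotides, had gene levels of 234 for SC and 4.35 for SG, and its extension of 6171 bases had levels of 0.0596 and 1.65.

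Calcineurin, the calcium-dependent phosphatase, was seen with both X-linked catalytic genes. CanA-14F was in all 4 tables, with gene levels of 0.35 for SC, 1.95 in SG and 19.7 to 24.9 in the mutants. Its share was 22.1% in SC and 100% in SG over 5180 bases, and 49.3% to 53.6% in the mutants over 2350 to 2370 bases, from 29.9% to 30.2% in SC. Pp2B-14D, chosen after its values were seen, had 7.39% in SC and 59.5% in SG. The SC level of CanA-14F is low, and its SC shares rest on little signal.

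Of the cytoskeleton and division list 5 of 27 X-linked members were listed, all called higher in a mitotic group, which is near the background for X rows. mud, the NuMA counterpart that orients spindles, had gene levels of 83.1 for SC and 17.4 to 24.4 for the mutants, and shares of 2.68% to 2.82% for SC and 42.1% to 49.1% for the mutants over 3440 to 3620 bases. Part of this stretch lay over the antisense gene asRNA:CR46473. Klp3A, a kinesin of the central spindle, had gene levels of 25.3 for SC and 17.5 and 19.6 for SG-tut and SG-bam, with shares of 0.3% and 0.326% in SC and 25.7% and 47.8% in these mutants, over 270 and 220 bases. sn, the actin bundler fascin, had 3.07% in SC and 67.3% in SG, but 4.58% and 5.31% in SG-bgcn and SG-tut, where its gene level was 39 and 35.9 against 12.4 in SG. ctp, the dynein light chain, had 0.136% in SC, 3.15% in SG and 0.64% in SG-bgcn over the same 250 bases. NetB, a guidance cue named by its high SC level and outside the lists, had 0.00655% in SC and 0.15% in SG. Act5C, a cytoplasmic actin with close paralogs, had gene levels of 163 in SC and 956 to 2055 in SG, SG-tut and SG-bgcn and shares of at most 0.19%.

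Of 23 X-linked members of the list of adhesion and excitability genes, known for their work in nerve and muscle, 10 were listed. Of these 9 were called, all higher in a mitotic group, near the background for X rows. Fas2, an adhesion molecule of the NCAM type, had gene levels of 1.92 for SC and 31.3 for SG, and its 7300-base extension a share of 14.9% and 36%. Nrg, an L1-type adhesion molecule also made by cyst cells, had 2.38% and 10.3%. Ten-a, Sh and cac, a teneurin, a potassium channel and a calcium channel, were at 100% in SG from 10.8%, 27.8% and 46.3% in SC, with gene levels of at most 0.77 in either group. ogre and Inx2, both gap junction innexins, differed from these in having a high gene level in the mitotic group. ogre had 0.69 in SC against 44.5 in SG, at shares of 12.5% and 39.3%, and Inx2 had 1.22 in SC and 72.9 in SG-bam, with 10.3% and 12.9%. The innexin shakB was listed for SG-bgcn and missed the threshold, with its SC extension listed at 0. Tao, a kinase acting on the Hippo pathway and on microtubules, had 7.81% to 7.87% in SC and 48% to 49.7% in the mutants over 5020 to 5060 bases, with a gene level of 6.09 in SC and 57.3 to 64.7.

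The shares of kirre and Scgdelta, both in all 4 tables, differed in opposite ways between SG and the mutants. Their stretches were not the same in each table, at 730 to 1690 bases for kirre and 3650 to 7400 for Scgdelta. kirre, an adhesion molecule of myoblast fusion, was at 100% in SG and 33.6% to 37.3% in the mutants, from 0.612% to 0.77% in SC. Its gene level was 1.55 in SC, 0.51 in SG and 1.86 to 4.17 in the mutants. The extension level of kirre in SG, 1.17, lay within the 0.627 to 1.4 of the mutants, so its SG share rests on a low gene level. Scgdelta, part of the sarcoglycan complex of muscle, was at 13.2% in SG and 84.5% to 94.4% in the mutants, from 3.71% to 4.8% in SC. Its gene level was 16.2 in SC, 15.7 in SG and 2.76 to 3.36 in the mutants, and its extension level was alike in SG (2.06) and in the mutants (2.6 to 2.84). The muscle marker Tm1 was higher in all 4 mitotic groups than in SC, as given above, and its part in these 2 genes was not tested.

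Ubiquitin and proteasome genes gave 3 of 10 X-linked members, all called higher in SG, as were 97% of X rows there. ben, the ubiquitin-conjugating enzyme Ubc13, was in all 4 tables, with gene levels of 148 in SC and 233 to 287 in the mitotic groups, and shares of 0.547% in SC, 9.07% in SG and 1.36% to 2.61% in the mutants. Prosalpha4, a core proteasome subunit, had gene levels of 168 for SC and 666 for SG. dx, a regulator of Notch, had 1.86% in SC and 9.32% in SG.

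Of the metabolism list 3 of 19 X-linked members were listed, all called higher in a mitotic group, near the background for X rows. Ahcy13, which clears the product of methylation reactions, had gene levels of 29.8 for SC and 134.4 to 203 for the mitotic groups, and a share of 0.418% in SC, 2.17% in SG and 2.58% to 2.98% in the mutants, though its SG-bam row missed the threshold. sesB, the ADP/ATP exchanger of mitochondria, had gene levels of 1172 in SC and 806 in SG-bam and shares of 1.4% and 4.55%. Pfrx, which makes the regulator fructose-2,6-bisphosphate, had 2.01% in SC and 7.34% in SG-bam. Outside the list, Ctr1A, a copper importer, was at 10.1% in SC and 100% in SG, but 19.1% to 21.9% in the mutants, where its gene level was 80 to 124 against 7.52 in SG. Lsd-2, a lipid droplet protein, had 6.21% in SG and 0.598% to 0.82% in the mutants, where its gene level was 79.1 to 84.8 against 9.52 in SG.

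The remaining genes of all 4 tables bear CG or lethal-locus names. CG33181 was at 0.926% in SC and 100% in SG, with 35.5% to 38.4% in the mutants. CG2258 had 0.996% in SC, 61.1% in SG and 40.7% to 67.7% in the mutants, with a gene level that was lower in every mitotic group (11.95 in SC, 6.01 to 8.27). CG32756 had a share of 0.0638% in SC, 6.75% in SG and 5.87% to 11.5% in the mutants, over the same 258 bases of its 3′ UTR in all 4 tables. CG1578 had 4.29% in SC and 56.9% in SG, CG15599 0.206% and 7.69%, CG43736 3.73% and 6.74%, and CG7246 0.566% and 3.06%. l(1)G0320 had 1.38% in SC and 12.2% to 79.4% in the mitotic groups over the same 470 bases, highest in SG-bam and lowest in SG-tut. CG14440, CG14446, CG15890 and CG12708 stood at 100% in SG, on gene levels of 0.21 to 0.65 in SC, and the SC extension of CG12708 was listed at 0.

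The largest changes of the share on X, among called rows with all levels above 0, differed between SG and the mutants. In SG they belonged to Pde9, CG1885, CG42797, Pp2C1, kirre and r-cup, with log2 changes of 10.49 down to 7.14 in the authors' deposited table. In the mutants sd, CG6308, Klp3A, Rab39, tko, CG32756 and CG34449 were among the leaders. CG34449 had the largest log2 change in SG-bgcn, 14.74 in the authors' deposited table, on gene levels of 202 for SC and 0.41 for SG-bgcn. CG6308 had 0.103% in SC and 17.6% to 33% in the mutants over 661 bases that start 2570 bases past the locus. Rab39, a vesicle transport GTPase, had 0.212% in SC and 24% in SG-bam. tko, a mitochondrial ribosomal protein, had 0.0027% and 0.00374% in SC and 0.337% and 0.735% in SG-bam and SG-bgcn. CG34417 had an extension of 490 bases in SG-tut and SG-bam, at 68.9% and 70.6%, and of 6200 bases in SG-bgcn, at 46.6%. The longest X-linked extension of the SG-bgcn table, 8020 bases of l(1)G0289, had shares of 1.43% for SC and 22.6% for SG-bgcn. CG11700 had 0.0653% in SC and 23.7% in SG-bam, and CG13365 and CG2658 were at 10.7% and 4.07% in SG-tut from 0.121% and 0.0442%.

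Extensions with the larger share in SC were few on X and belonged to 25 genes. Some of their genes had a high level in SC and almost none in the mutants. Among rows called higher in SC, the gene level was at least 10-fold lower in the mutant in 5 of 10 in SG-tut, 11 of 13 for SG-bam and 4 of 8 for SG-bgcn, against 80 of 148, 65 of 128 and 62 of 137 on the other chromosomes. Only in SG-bam was this a majority on X, and there CG45488 to CG45491 carry the same gene levels. The extension was listed at 0 in the mutant in 4, 5 and 4 of these rows. They lay wholly downstream of the locus in 70%, 92.3% and 87.5% of cases, against 75%, 77.3% and 76.6% on the other chromosomes.

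CG8565 had gene levels of 670 for SC, 0.67 in SG-tut and 2.52 in SG-bam, and shares of 5.53%, 1.79% and 0.962%. CG15200 stood at 5816 in SC and 7.09 in SG-bam, with an extension level of 4.43 in SC and 0 listed in SG-bam. CG45488, CG45489, CG45490 and CG45491, neighbours listed for SG-bam, carry the same gene levels (193.74 in SC and 0.22 in SG-bam) and so are not separate measurements of the gene, while their extensions had shares of 80.8%, 23.3%, 47.6% and 5.26% in SC. With gene levels this low in SG-bam, the mutant shares of these 4 genes rest on little signal. CG1324 (1405 in SC and 0.56 in SG-tut) and CG1394 (1823 in SC and 0.03 in SG-bgcn) had the same pattern of gene level.

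In a smaller set the gene stayed expressed in the mutants and the share was still higher in SC. BTBD9 had gene levels of 16.8 for SC and 12.3 for SG-tut, and a share of 83.8% and 1.16% over 320 bases inside its 3′ UTR. parvin, an integrin adaptor, had gene levels of 170 in SC and 77.3 and 77.4 in SG-tut and SG-bgcn and shares of 3.41%, 0.286% and 0.3%, over a stretch that overlaps an exon of Alr. rngo had gene levels of 68 in SC and 46.9 to 47.5 in these mutants and shares of 0.524% to 0.528% and 0.0217% to 0.0221%. Tim9a, a chaperone of mitochondrial import, had a stretch that overlaps CG1662. Rrp47, a cofactor of the nuclear exosome, had 1.56% in SC and 0.28% in SG-tut, and CG45089 had 0.254% in SC and 0.00818% in SG-bgcn with a gene level that was higher in the mutant (652 against 356). CG8191 had 9.15% in SC and 1.25% in SG-bam, over a stretch that shares 207 bases with the listed extension of Arp6.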

How the data were processed

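Extensions were measured by RNA-seq in 12 libraries of 5 groups. Per the submitters' processing notes, DESeq2, Cuffdiff 2.2.1 and Cufflinks 2.2.1 were used, as were TopHat2 2.1.0, Trimmomatic 0.33, CASAVA, FastQC 0.11.3 and the dm6 build. No source used here says which step gave which column. The deposited level (signal) of each extension and gene is the authors' average per group, in a unit not named, so depth and replicate spread are unknown. The deposited share is a fraction, the extension level over the gene level after the authors added 1e-05 to both, limited to 1, and is printed here in percent. The p-values, FDR and log2 changes are those of the authors' deposited tables. The deposited gene names and coordinates (other columns) were used as given.

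X rows were taken by the chromosome of the extension, counted and summarised beside all other rows, with an FDR threshold of 0.05. Genes were matched to the Ensembl release 115 annotation (BDGP6.54) for 460 of 462 rows, 450 by ID and 10 by symbol. No test was made, since no value per library is given. Named genes are those in all 4 tables, the 6 largest called changes each way, the 4 highest levels and the 4 longest extensions per table, and listed members of 10 gene lists. One listed member is not reported here by name. Members and lists were chosen with earlier results of these data known. Counting was tested on simulated data. Python 3.11.15, pandas 2.3.3 and numpy 2.4.6 were used.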

Additional observations from a re-analysis of the deposited data

How the results depend on the processing

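Under 43 planned and 16 added settings, counts on X stayed within 1.5 times the reported count or a median kept its value. The added ones were chosen after seeing the data, and no value reversed. Some of these settings could not change a result. A filter leaves a count of 0 at 0, and lifting the 100% limit cannot move a median that lies below it. The 18 others moved. They keep fewer or more rows by construction, as do many settings that left a result the same. The median shares fell where rows with low gene levels were left out. With a gene level of at least 1 in both groups, the median mitotic share of X rows was 13% in SG, 11.5% in SG-tut, 19.8% in SG-bam and 14.5% in SG-bgcn. Without this limit it was 25.9%, 23.4%, 23.1% and 21.9%. The median SC share was 0.942%, 1.13%, 1.23% and 0.942% with the limit, and 1.38%, 1.61%, 2.3% and 1.33% without it. Calls toward SC then numbered 5 in SG-tut, 5 in SG-bam and 4 in SG-bgcn, and 6, 8 and 4 with all levels above 0. Over all listed rows the median length was 559, 610, 670 and 560 bases, against 564, 615, 705 and 600 over rows called in either direction. No paired analysis was possible because the tables give group averages only. Leaving out replicates, and the poly(A) motif and base composition results, were not run. Depth cannot be judged from these files.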
